A study of Gossypium barbadense and Gossypium hirsutum with 8 samples.

Results

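Genes that sit next to each other on a cotton chromosome and share their course through fiber development are described here. They were chosen by their measured values in a deposited table of RPKM (reads divided by gene length and by the size of the library). Each library was first rescaled to a sum of 300000, which gives a scaled RPKM. A pair was taken when its 2 genes lay on the same A or D chromosome with consecutive identifier numbers. Both genes had to reach 20 RPKM in at least 1 library and differ at least 8-fold between their highest and lowest scaled RPKM + 1. The Pearson correlation of log2(scaled RPKM + 1) over the 8 libraries had to be at least 0.95. This gave 43 pairs, which join into 37 runs holding 80 of the 59006 listed genes. The runs comprise 32 of 2 genes, 4 of 3 genes and 1 of 4 genes.

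The libraries came from fibers of Gossypium barbadense (extra-long-staple cotton) and Gossypium hirsutum (upland cotton), here barbadense and hirsutum fibers, at 5, 10, 15 and 20 days post anthesis (DPA), sampled once for each species and stage, with no treatment named. The last stage is given as 20 DPA by the stage labels, while its titles carry the number 25. The labels do not name the cultivars or say how many plants a library pools. With 1 library in each group, a difference at a single stage has no replicate check. Identifiers such as Gh_A08G0314 give the subgenome, the chromosome and a number along it. Of these identifiers 0 matched a reference table of 74561 G. barbadense genes, so no member has a name or a known role here, and the fiber label could not be checked against marker genes. The files hold no gene sequence, strand or coordinate, so neighbours are neighbours in number only.

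A cotton fiber is a single cell of the seed coat that elongates and later deposits a cellulose-rich secondary wall. Both species are tetraploids with an A and a D subgenome, whose chromosomes of the same number mostly correspond. Adjacent genes in plant genomes often arose by tandem duplication, in which a gene is copied beside itself, and such copies can keep similar sequence and control.

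The summed RPKM ranged from 138198 in hirsutum fibers at 5 DPA to 503585 in barbadense fibers at 10 DPA, a 3.64-fold span. It therefore matters whether a level is given as deposited or scaled. Member genes took between 0.49% and 1.03% of the summed RPKM in 7 libraries and 3.20% in hirsutum fibers at 5 DPA. In whole fibers, fewer cells of a type and less RNA per cell cannot be told apart.

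Genes with shared courses were concentrated among immediate neighbours. The table lists 56655 genes on A or D chromosomes, of which 2946 met the level and span criteria and are called eligible. These form 229 adjacent pairs, and 43 of them (18.8%) reached the correlation of 0.95. At a distance of 2 numbers 14 of 152 eligible pairs did so (9.21%), and at 3 numbers 5 of 146 (3.42%). From 4 to 10 numbers the count was 11 of 966 (1.14%), close to the 1.28% of eligible pairs on the same chromosome farther apart and the 1.28% of 4165031 eligible pairs on different chromosomes. The median correlation was 0.66 for adjacent pairs, 0.45 at 2 numbers and 0.21 for different chromosomes. Of the 14 pairs at 2 numbers, 5 lay inside a run of 3 or 4 genes. These shares are a description, because the pairs overlap in genes and the rule used the same values.

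**Figure D1:**
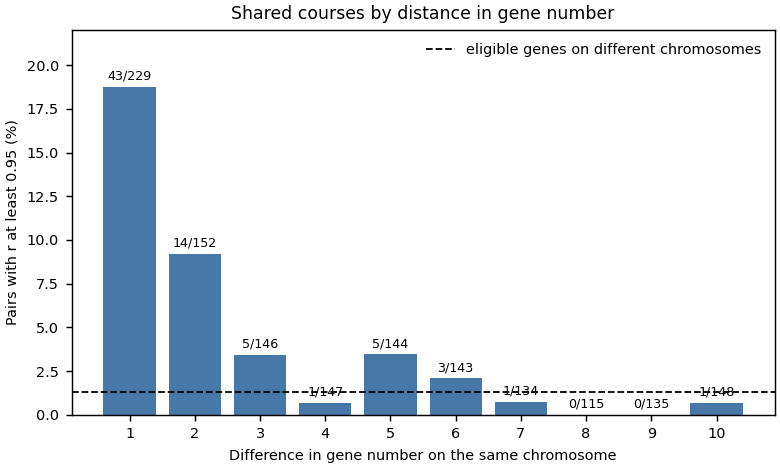
Percentage of pairs of eligible genes with r of at least 0.95 over the 8 libraries (y axis) against the difference in gene number (x axis), with the counts above the bars and the share on different chromosomes as a dashed line. The share goes from 18.8% for adjacent genes to 3.42% at 3 numbers and scatters around the 1.28% line from 4 to 10 numbers, where it is 1.14% in all.

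Within the 43 pairs the correlation ran from 0.9525 to a value rounding to 1.0, with a median of 0.97, and 16 pairs reached 0.98. Just inside the limit were Gh_A10G1242 with Gh_A10G1243 (0.9525) and Gh_D05G2647 with Gh_D05G2648 (0.9541). Just outside were Gh_A08G2114 with Gh_A08G2115 (0.9497) and Gh_D08G0413 with Gh_D08G0414 (0.9493). The member with the lowest peak was Gh_A09G1797 at 20.3 RPKM, and the nearest gene that missed the level in an otherwise fitting pair was Gh_A03G0999 at 19.9 RPKM. For the span, Gh_A08G0219 was nearest inside at 10.1 and Gh_D11G1143 nearest outside at 7.78.

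Most listed genes that border the runs did not reach the limit on level, as is true of most genes. Of the 74 ends of runs, 9 bordered a number that the table does not list, and 65 bordered a listed gene. In 50 of these 65 the flanking gene stayed below 20 RPKM in every library (76.9%), and in 26 it stayed below 1 RPKM (40%). Among all 56655 listed genes of the A and D chromosomes these shares were 91.0% and 40.8%. Only 13 flanking genes met both the level and the span and missed the correlation. The median of the highest RPKM was 1.45 for listed flanking genes and 1.47 for all listed genes. For members it was 66.0 and for all eligible genes 44.5, both of which the limit of 20 RPKM holds up. The median correlation of a flanking gene with the gene at the end of the run was 0.35.

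Most runs were highest at 5 or 10 DPA. On the scaled values, averaged over both species, 18 of 37 runs had their peak at 5 DPA and 12 at 10 DPA, while 3 and 4 runs did so at 15 and 20 DPA. Among all eligible genes the shares at these stages were 28.1%, 43.6%, 8.79% and 19.5%, against 48.6%, 32.4%, 8.11% and 10.8% of the runs. Taken by species, the scaled peaks of 14, 10, 8 and 5 runs fell at these stages in barbadense fibers. In hirsutum fibers those of 20, 10, 3 and 4 runs did so. Only 20 of the 37 runs had the same peak stage in both species. The runs from Gh_D06G1437 and from Gh_D13G0578, grouped at 10 DPA by the average, peaked at 15 DPA in barbadense fibers and at 5 DPA in hirsutum fibers. The stage depends on the scale: as deposited, 7 runs were highest at 5 DPA and 24 at 10 DPA, with 2 and 4 at the later stages. The 5 and 10 DPA groups are therefore best read together as early runs. On the scaled values 30 runs stood lower at 20 than at 5 DPA in both species, 5 stood higher in both, and 2 went opposite ways.

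**Figure D2:**
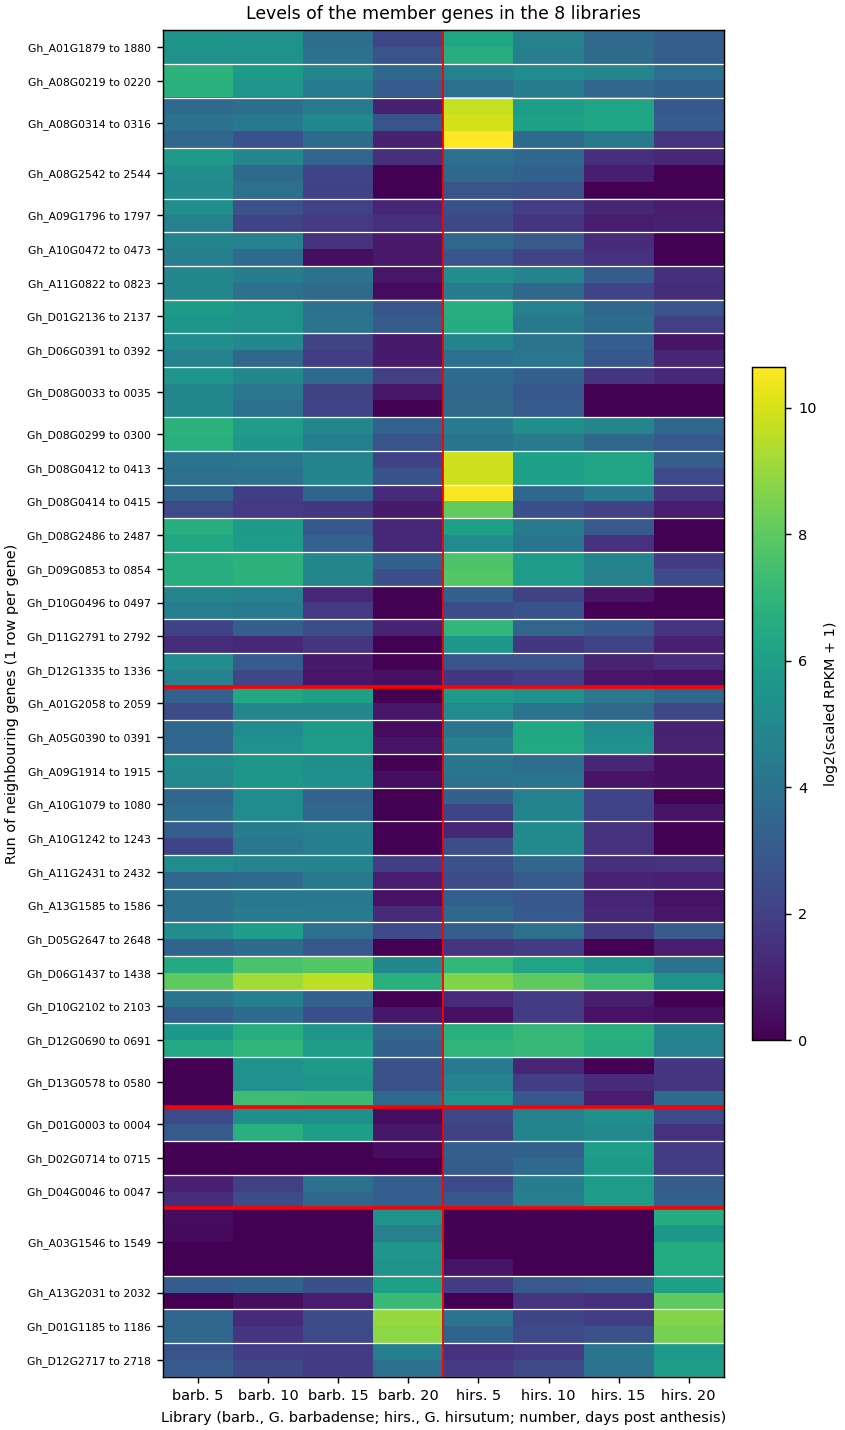
Scaled levels of the 80 member genes as log2(scaled RPKM + 1), 1 row per gene and 1 column per library, with white lines between runs, thick red lines between the peak stages 5, 10, 15 and 20 DPA from top to bottom, and a vertical red line between the species. The 4 runs at the bottom are bright in both 20 DPA columns, and the runs from Gh_A08G0314 and from Gh_D08G0412 are brightest in the hirsutum 5 DPA column.

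The longest run, Gh_A03G1546 to Gh_A03G1549, consists of 4 genes seen almost solely at 20 DPA. Gh_A03G1546 stood at 47.3 RPKM in barbadense fibers and 94.7 RPKM in hirsutum fibers at 20 DPA, Gh_A03G1547 at 26.0 and 48.7 RPKM. Gh_A03G1548 stood at 49.5 and 92.9 RPKM and Gh_A03G1549 at 45.7 and 92.2 RPKM. In the 6 earlier libraries each of the 4 genes was listed at 0 or at most at 0.25 RPKM. At 20 DPA every gene of the run was higher in the G. hirsutum library than in that of G. barbadense. As deposited, 3 of the 4 genes had nearly equal levels in each 20 DPA library, and Gh_A03G1547 was lower by a ratio of 1.82 to 1.95 than its neighbours Gh_A03G1546 and Gh_A03G1548. With values above 0.25 RPKM in 2 libraries alone, the correlations of this run rest on the 20 DPA libraries.

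The other 3 late runs were pairs. Gh_D01G1185 and Gh_D01G1186 had the highest levels among them, at 554 and 498 RPKM in barbadense fibers and 400.5 and 355 RPKM in hirsutum fibers at 20 DPA. At 5, 10 and 15 DPA Gh_D01G1185 stood at 8.71, 2.42 and 5.64 RPKM in barbadense fibers and at 7.30, 3.96 and 2.35 RPKM in hirsutum fibers. Unlike the run on A03, this pair was thus present at every stage and in both species. Gh_A13G2031 reached 69.9 and 67.7 RPKM at 20 DPA in barbadense and hirsutum fibers, after 1.26 to 14.8 RPKM before. Its neighbour Gh_A13G2032 reached 163 and 266 RPKM at 20 DPA after 0 to 2.21 RPKM before, so its span was much wider. Gh_D12G2717 and Gh_D12G2718 stood at 14.2 and 13.3 RPKM in hirsutum fibers at 15 DPA and reached 53.4 and 60.7 RPKM there at 20 DPA. In barbadense fibers their 15 DPA levels were 3.21 and 3.35 RPKM, and their 20 DPA levels 25.1 and 14.9 RPKM.

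The highest member levels at 5 DPA were found in hirsutum fibers, in matching stretches of chromosomes A08 and D08. Gh_A08G0314 stood at 385, 65.1, 62.4 and 6.54 RPKM at 5, 10, 15 and 20 DPA in hirsutum fibers and at 9.77, 22.7, 26.0 and 1.07 RPKM in barbadense fibers. Gh_A08G0315 stood at 458, 72.7, 64.1 and 7.53 RPKM in hirsutum fibers and at 12.6, 31.1, 38.1 and 6.21 RPKM in barbadense fibers. Gh_A08G0316 stood at 740.1, 13.3, 15.8 and 2.08 RPKM in hirsutum fibers and at 9.02, 9.19, 15.9 and 1.07 RPKM in barbadense fibers. All 3 genes were highest at 5 DPA in hirsutum fibers and at 15 DPA in barbadense fibers. Gh_A08G0316 reached the highest level of the 3 at 5 DPA in hirsutum fibers and the lowest at 10 and 15 DPA.

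On D08, 4 consecutive genes were likewise highest at 5 DPA in hirsutum fibers. Gh_D08G0412 stood at 436, 68.5, 62.6 and 8.28 RPKM in hirsutum fibers and at 13.7, 28.4, 33.0 and 3.49 RPKM in barbadense fibers. Gh_D08G0413 was within a narrow range of it at 5, 10 and 15 DPA, with 428 RPKM at 5 DPA in hirsutum fibers and 11.98 RPKM in barbadense fibers. For both genes the gap between the species was widest at 5 DPA. Gh_D08G0414 stood at 707, 12.1, 17.0 and 2.08 RPKM in hirsutum fibers and at 8.42, 4.90, 12.2 and 1.61 RPKM in barbadense fibers. Gh_D08G0415 stood at 127 RPKM at 5 DPA in hirsutum fibers and at 0.76 to 5.48 RPKM in the 7 other libraries. As deposited, the first 3 of these genes were highest at 15 DPA in barbadense fibers, while Gh_D08G0415 was highest there at 10 DPA. Gh_D08G0415 differed little between the species at 15 and 20 DPA. Scaled, the last 2 genes were highest at 5 DPA in barbadense fibers. Gh_D08G0414 then stood at 9.77 against 9.66 at 15 DPA, and Gh_D08G0415 at 4.06 against 2.39 at 10 DPA. The rule divides this stretch into 2 runs because Gh_D08G0413 and Gh_D08G0414 reached 0.9493. Gh_D08G0414 and Gh_D08G0415 were also the pair least alike in level, with a 5.21-fold ratio of summed RPKM. The counterpart of Gh_D08G0415 by number, Gh_A08G0317, stood at 113 RPKM at 5 DPA in hirsutum fibers but correlated at 0.94 with Gh_A08G0316.

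A pair on D11 was also highest at 5 DPA in hirsutum fibers. Gh_D11G2791 stood at 61.2, 11.2, 5.52 and 2.14 RPKM in hirsutum fibers and at 2.78, 14.2, 6.30 and 1.10 RPKM in barbadense fibers. Gh_D11G2792 stood at 22.3, 2.51, 3.04 and 0.96 RPKM and at 1.39, 2.27, 2.84 and 0 RPKM. Unlike the genes on A08, Gh_D11G2791 was highest at 10 DPA in barbadense fibers. As deposited it stood above its hirsutum level at 10 and 15 DPA. On the scaled values the order was the reverse, 8.45 in barbadense against 10.2 in hirsutum fibers at 10 DPA and 4.97 against 6.55 at 15 DPA. Several correlations of the pairs highest at 5 DPA in hirsutum fibers depend on that 1 library. Without hirsutum fibers at 5 DPA the correlation of the D11 pair was 0.79, that of Gh_D08G0414 with Gh_D08G0415 was 0.83 and that of Gh_A08G0315 with Gh_A08G0316 was 0.90. The pairs Gh_A08G0314 with Gh_A08G0315 and Gh_D08G0412 with Gh_D08G0413 stayed at 0.97 and 0.96 without it.

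Another matching pair of runs, Gh_A08G2542 to Gh_A08G2544 and Gh_D08G0033 to Gh_D08G0035, was early and higher in barbadense fibers. Gh_A08G2542 stood at 46.5, 47.4, 12.95 and 1.94 RPKM in barbadense fibers and at 6.34, 11.7, 1.44 and 1.26 RPKM in hirsutum fibers. Gh_A08G2543 stood at 31.0, 19.3, 4.35 and 0 RPKM in barbadense fibers and at 5.12, 9.64, 0.71 and 0 RPKM in hirsutum fibers. Gh_A08G2544 stood at 27.4, 24.0, 3.99 and 0 RPKM and at 2.56, 5.71, 0 and 0 RPKM. The first gene of the run was the highest in every library, and each gene was at or near its lowest level at 20 DPA. In the D08 run the first gene was likewise the highest in every library. Gh_D08G0033 stood at 39.3, 51.1, 14.4 and 3.24 RPKM in barbadense fibers, Gh_D08G0034 at 25.3, 28.7, 3.99 and 0.64 RPKM and Gh_D08G0035 at 24.6, 23.2, 4.35 and 0 RPKM. In hirsutum fibers these 3 genes stood at 5.59, 4.75 and 5.48 RPKM at 5 DPA and had 1.80, 0 and 0 RPKM left at 15 DPA. The numbers of the 2 runs are far apart, 2542 on A08 against 33 on D08, whereas the other matches on these chromosomes lie at closer numbers.

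The last run of 3 genes, Gh_D13G0578 to Gh_D13G0580, differed in course between the species. In barbadense fibers Gh_D13G0580 was listed at 0 at 5 DPA and stood at 269, 193 and 12.6 RPKM at 10, 15 and 20 DPA. In hirsutum fibers it stood at 19.1, 7.06, 0.64 and 12.2 RPKM. Gh_D13G0578 was listed at 0 and stood at 67.9, 65.2 and 5.71 RPKM in barbadense fibers, and stood at 9.20, 1.28, 0 and 2.21 RPKM in hirsutum fibers. Gh_D13G0579 took the same 67.9 and 5.71 RPKM as Gh_D13G0578 at 10 and 20 DPA in barbadense fibers and 61.3 RPKM at 15 DPA. All 3 genes were thus high at 10 and 15 DPA in barbadense fibers and highest at 5 DPA in hirsutum fibers. The next gene, Gh_D13G0581, reached 75.7 RPKM and correlated at 0.99 with Gh_D13G0579 but at 0.93 with its direct neighbour Gh_D13G0580, and so is not a member.

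**Figure D3:**
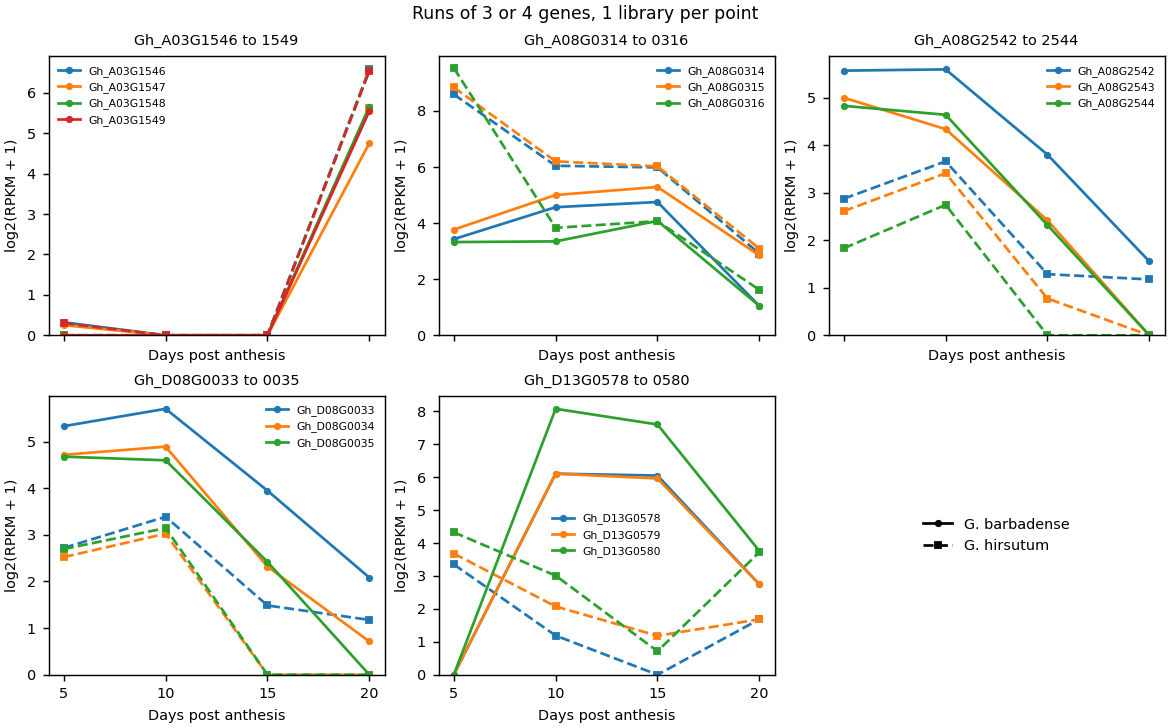
Levels of the 5 runs of 3 or 4 genes as log2(RPKM + 1) on the values as deposited (y axis) against days post anthesis (x axis), with 1 colour per gene, solid lines for G. barbadense and dashed lines for G. hirsutum; each point is 1 library. The A03 run is near 0 before 20 DPA, the A08 run of genes 0314 to 0316 is highest in hirsutum fibers at 5 DPA, and the D13 run goes from 0 at 5 DPA to its highest values at 10 DPA in barbadense fibers.

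Among runs grouped at 10 DPA by the average over both species, Gh_D06G1437 and Gh_D06G1438 were the most abundant. Gh_D06G1438 stood at 222, 968, 986 and 116 RPKM at 5, 10, 15 and 20 DPA in barbadense fibers and at 183, 277, 136 and 42.7 RPKM in hirsutum fibers. Gh_D06G1437 followed at 78.6, 326, 292 and 33.1 RPKM and at 59.9, 79.9, 35.1 and 14.6 RPKM. The ratio between the 2 genes lay between 2.82 and 3.88 in all 8 libraries, so the course was shared at a steady difference in level. The correlation of this pair was 0.99 and did not go below 0.99 when any 1 library was left out.

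Gh_D12G0690 and Gh_D12G0691 were highest at 10 DPA in both species. Gh_D12G0690 stood at 43.3, 164, 58.0 and 11.1 RPKM in barbadense fibers and at 49.3, 149, 90.7 and 27.0 RPKM in hirsutum fibers. Gh_D12G0691 reached 212 and 154 RPKM at 10 DPA. Scaled, the order of the species at 10 DPA was the reverse for both genes. Gh_D12G0690 then stood at 97.6 in barbadense against 137 in hirsutum fibers, and Gh_D12G0691 at 127 against 141. Gh_A05G0390 stood at 9.56, 57.9, 69.3 and 0.25 RPKM in barbadense fibers and at 7.61, 87.9, 29.0 and 0.99 RPKM in hirsutum fibers. Its neighbour Gh_A05G0391 was within a ratio of 1.07 to 1.38 of it wherever both reached 5 RPKM. This pair stayed high to 15 DPA in barbadense fibers and was lower at 15 than at 10 DPA in hirsutum fibers.

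The 3 runs highest at 15 DPA were each of another kind. Gh_D02G0714 and Gh_D02G0715 were seen in hirsutum fibers, at 3.79, 9.51, 52.3 and 2.73 RPKM and at 3.55, 12.4, 46.3 and 2.85 RPKM. In barbadense fibers both were listed at 0 apart from 0.31 RPKM for Gh_D02G0714 at 20 DPA. This was the largest species difference among the pairs towards G. hirsutum, -3.56 in mean log2(scaled RPKM + 1). Of these 8 barbadense values, 7 are thus listed at 0, and no fold is given against them.

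Gh_D04G0046 and Gh_D04G0047 were highest at 15 DPA in both species, at 19.0 and 13.9 RPKM in barbadense fibers and 47.8 and 49.8 RPKM in hirsutum fibers. Gh_D01G0003 and Gh_D01G0004 stood at 64.0 and 179 RPKM at 10 DPA in barbadense fibers and at 33.0 and 27.8 RPKM at 15 DPA in hirsutum fibers. Their place in the 15 DPA group rests on the scaling, since as deposited this run was highest at 10 DPA.

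The remaining early runs were pairs of moderate level. Gh_A08G0219 and Gh_A08G0220 stood at 102 and 91.5 RPKM and Gh_D08G0299 and Gh_D08G0300 at 102 and 91.9 RPKM at 5 DPA in barbadense fibers, against 11.2, 6.31, 8.99 and 7.72 RPKM in hirsutum fibers. Gh_D08G2486 and Gh_D08G2487 stood at 84.9 and 69.5 RPKM at 5 DPA in barbadense fibers and at 29.8 and 15.7 RPKM in hirsutum fibers. In contrast, Gh_A01G1879 and Gh_A01G1880 stood at 38.9 and 36.8 RPKM at 5 DPA in barbadense fibers and at 36.0 and 45.0 RPKM in hirsutum fibers. This nearness holds as deposited only. Scaled, they stood at 45.1 and 42.7 in barbadense against 78.0 and 97.7 in hirsutum fibers. Gh_D09G0853 and Gh_D09G0854 reached 193 and 198 RPKM at 10 DPA in barbadense fibers and 92.5 and 105 RPKM at 5 DPA in hirsutum fibers. For this pair the scaled values gave the reverse order, 115 and 118 in barbadense against 201 and 229 in hirsutum fibers at these stages.

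The other runs of the 5 DPA group were Gh_A09G1796 to Gh_A09G1797, Gh_A10G0472 to Gh_A10G0473, Gh_A11G0822 to Gh_A11G0823, Gh_D01G2136 to Gh_D01G2137, Gh_D06G0391 to Gh_D06G0392, Gh_D10G0496 to Gh_D10G0497 and Gh_D12G1335 to Gh_D12G1336. Their members peaked between 20.3 RPKM (Gh_A09G1797) and 72.9 RPKM (Gh_D01G2137). The other runs of the 10 DPA group were Gh_A01G2058 to Gh_A01G2059, Gh_A09G1914 to Gh_A09G1915, Gh_A10G1079 to Gh_A10G1080, Gh_A10G1242 to Gh_A10G1243, Gh_A11G2431 to Gh_A11G2432, Gh_A13G1585 to Gh_A13G1586, Gh_D05G2647 to Gh_D05G2648 and Gh_D10G2102 to Gh_D10G2103. Their members peaked between 20.9 RPKM (Gh_D05G2648) and 135 RPKM (Gh_A01G2058). Gh_D10G2102 stood at 13.8, 38.9, 10.8 and 0 RPKM in barbadense fibers and at 0.64, 2.82, 0.62 and 0 RPKM in hirsutum fibers. With Gh_D10G2103 it formed the pair with the largest difference towards G. barbadense, 1.87 in mean log2(scaled RPKM + 1).

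How many runs stood higher in each species depended on the scale. On the scaled values the mean log2 level was higher in barbadense fibers for 22 runs and in hirsutum fibers for 15, while as deposited these counts were 27 and 10. At all 4 stages, 7 runs were higher in barbadense fibers and 7 in hirsutum fibers on the scaled values, against 8 and 4 as deposited. Taken separately, 38 of the 43 pairs reached a correlation of 0.95 over the 4 G. barbadense libraries and 36 over the 4 G. hirsutum libraries, and 31 did so in both. The pair Gh_D02G0714 and Gh_D02G0715 has no value in barbadense fibers, where 1 of its genes was 0 throughout. With 4 points each, these correlations are loose descriptions.

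The age and species differences were fitted over the whole table with limma on log2(RPKM + 1), with species and stage as factors, and all 80 members passed its filter of a mean of 1 RPKM. Between 5 and 20 DPA, 1217 of 20356 tested genes passed a Benjamini-Hochberg adjusted p of 0.05 (5.98%). Of these, 688 were higher (3.38%) and 529 lower (2.6%) at 20 DPA. Of the 80 members 38 passed (47.5%), with 9 higher and 29 lower at 20 DPA. The 9 that rose were all 4 genes of the A03 run, both genes of the pairs Gh_A13G2031 with Gh_A13G2032 and Gh_D01G1185 with Gh_D01G1186, and Gh_D12G2717. The estimate for Gh_A13G2032, which rose, was 7.71 in log2 units (SE 0.65, limma adjusted p = 1.56e-05). Gh_D08G2486 fell by 5.05 (SE 0.68, limma adjusted p = 0.000615), the lowest adjusted p among the falling members. Members were chosen for a wide span over these same libraries, so nothing is read from their larger share. Their median change was -2.27, against -0.49 for all tested genes. The count of members was 11 without barbadense fibers at 20 DPA, 20 without hirsutum fibers at 5 DPA and 24 without barbadense fibers at 5 DPA.

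The species difference over the 4 stages passed the same threshold for 374 of 20356 genes (1.84%), 297 higher (1.46%) and 77 lower (0.378%) in barbadense fibers. Of the members 4 passed (5.0%). Gh_D02G0714 and Gh_D02G0715 were lower in barbadense fibers, with log2 differences of -3.22 (SE 0.61, limma adjusted p = 0.0307) and -3.36 (SE 0.58, limma adjusted p = 0.0228). Gh_D08G0033 and Gh_D08G2487 were higher by 2.07 (SE 0.49) and 1.999 (SE 0.47), each at a limma adjusted p of 0.04996. The median difference was 0.92 for members and 0.49 for all tested genes. They moved to 0.44 and 0.13 with median-of-ratios factors and to 0.40 and -0.02 with quantile normalization, and with either 0 members were higher and 1 was lower in barbadense fibers (32 and 35 at an unadjusted p under 0.05). The reported count hung on single libraries: without either 20 DPA library it was 24 or 25, and without any 1 of the other 6 libraries it was 0 (27 to 35 members at an unadjusted p under 0.05). The genes of a run are not independent of each other.

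Runs lay on both subgenomes. The A chromosomes held 16 runs with 36 genes and the D chromosomes 21 runs with 44 genes. Measured against the adjacent eligible pairs, the shares were close, 20 of 111 pairs on A (18%) and 23 of 118 on D (19.5%). Runs occurred on 8 of 13 A chromosomes and 11 of 13 D chromosomes, and A07, D07 and 5 others held none. Chromosomes A08 and D08 together held 8 runs with 19 genes, and there 11 of 28 adjacent eligible pairs were members (39.3%). No test was made of this share, and 3 matched stretches of A08 and D08 contribute to it from both sides.

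Several runs had a counterpart with the same course on the other subgenome. For each member pair, an adjacent pair was sought whose genes each correlated with its own at 0.95 or more and peaked within 1.5-fold, with at least 5 RPKM. Such a match lay on the same-numbered chromosome of the other subgenome for 16 of 43 pairs (37.2%), belonging to 13 runs. On the 12 other chromosomes of that subgenome there were 0 matches in 516 combinations of pair and chromosome. If the combinations were independent, this would allow a share of up to 0.581% by counting error alone. They are not, because each pair recurs on all 12 chromosomes and some pairs share genes. In 11 of the 16 cases both genes of the counterpart were themselves members. Among these, Gh_D08G0413 with Gh_D08G0414 (0.9493) is not itself a member pair. The rest are member pairs, so that such a match can count from either side. Among single eligible genes, 1.67% of the 172809 pairings across same-numbered chromosomes of the 2 subgenomes reached a correlation of 0.95. That share counts each pairing of genes. The 37.2% counts member pairs with any match on a whole chromosome, so the 2 shares are not directly comparable.

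The matched genes stood at similar levels on both subgenomes, which the limit on their peaks partly fixes. Over 19 matched A and D genes the median correlation was 0.99, and the typical ratio of their RPKM was 1.15, with the ratio taken as the median over libraries where both reached 5 RPKM. Gh_A08G0315 and Gh_D08G0413 stood at 458 and 428 RPKM at 5 DPA in hirsutum fibers and correlated at 0.996 over the libraries. Gh_A08G0314 and Gh_D08G0412 stood at 385 and 436 RPKM there. Gh_A08G0219 and Gh_D08G0299 both stood at 102 RPKM at 5 DPA in barbadense fibers, with an equal deposited value. The widest typical ratio was 1.79, between Gh_A11G0822 and Gh_D11G0963. In 7 of the 19 an equal RPKM above 0 occurred in at least 1 library, so the split of reads between subgenomes is uncertain too. Apart from the value of 102 RPKM above and 10.5 RPKM for Gh_A01G1880 and Gh_D01G2137, these equal values were at 2.08 RPKM or below, near the floor.

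Counterparts that are not members missed the rule narrowly in several cases. The D09 counterpart of Gh_A09G1796 and Gh_A09G1797, Gh_D09G1918 with Gh_D09G1919, correlated at 0.99 but reached only 19.1 RPKM in its lower gene. Gh_D11G0963 with Gh_D11G0964 correlated at 0.94 and Gh_A11G2471 with Gh_A11G2472 at 0.89. Gh_A12G1212 with Gh_A12G1213 correlated at 0.92 and reached 16.1 RPKM in its lower gene. The runs Gh_A10G0472 to Gh_A10G0473 and Gh_D10G0496 to Gh_D10G0497 correlated at 0.96 in their means, although their genes did not match one by one. All 13 runs with a match belong to the group highest at 5 DPA on the scaled values, and none was found for the 12, 3 and 4 runs highest at 10, 15 and 20 DPA. The split between 5 and 10 DPA depends on the scale. As deposited, several of the matched runs were highest at 10 DPA, among them those from Gh_A01G1879 and from Gh_D08G0299.

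**Figure D4:**
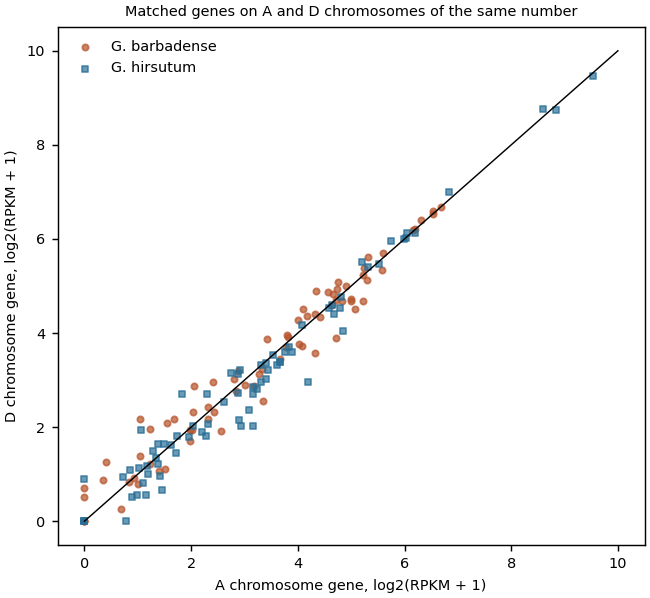
Level of the D chromosome gene (y axis) against that of its matched A chromosome gene (x axis), both as log2(RPKM + 1) on the values as deposited, for 19 matched genes in 8 libraries, with circles for G. barbadense and squares for G. hirsutum. The points lie along the line of equality from 0 to the G. hirsutum 5 DPA values of the A08 and D08 genes near 740.1 and 707 RPKM.

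Neighbours in these pairs were closer in level than other adjacent eligible genes, as a description without a test. The other pairs are those that missed the correlation. Where courses differ, the ratio between the genes also changes from library to library, so the choice of pairs partly fixes this contrast. The ratio of summed RPKM between the 2 genes, which the highest library dominates, had a median of 1.19 and was under 1.5 in 26 of 43 pairs (60.5%), from 1.5 to 2 in 10 and at least 2 in 7. In the 186 other adjacent eligible pairs the median ratio was 2.22, and 27.4% were under 1.5. Taken library by library where both genes reached 5 RPKM, the typical ratio of a pair had a median of 1.35 in member pairs and 2.41 in the 174 other pairs with such a library, and it was under 1.5 in 60.5% and 16.7% of them. A small ratio of sums can hide larger ones within libraries: Gh_A08G0315 and Gh_A08G0316 had a ratio of sums of 1.17 and ratios of 1.40 to 5.48 in single libraries, with a median of 2.89.

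Some neighbours had exactly the same RPKM to 2 decimals in the same library. Where both genes reached 5 RPKM, this held for 6 of 184 values in member pairs (3.26%). It held for 0 of 616 values in the other adjacent eligible pairs and for 1 of 3021 values in eligible pairs 4 to 10 numbers apart. If the 616 values were independent, the 0 would allow a share of up to 0.487% by counting error alone. They are not, because 1 pair gives values in several libraries, and these other pairs are those that missed the correlation. Gh_A09G1914 and Gh_A09G1915 both stood at 82.1 RPKM in barbadense fibers at 10 DPA, and Gh_A10G1079 and Gh_A10G1080 both at 59.6 RPKM in that library. Gh_A10G1242 and Gh_A10G1243 shared 35.9 RPKM in hirsutum fibers at 10 DPA, and Gh_D09G0853 and Gh_D09G0854 shared 86.0 RPKM in barbadense fibers at 5 DPA. Counting all values above 0, 8 pairs held at least 1 equal value, and 5 of them held one of 5 RPKM or more. In the rest the equal values lay at 1.40 RPKM or below, near the floor. How reads that fit several genes were counted is not given in the sources used here, so the split of reads between these 8 pairs of neighbours is uncertain, and its part in the shared courses was not tested. Without all adjacent pairs that hold an equal value, 35 of 219 remained (16%), an alternative chosen after seeing the data.

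The dependence on single libraries differed among the pairs. Of the 43 pairs, 23 kept a correlation of at least 0.95 whichever library was left out and 20 went below it for at least 1 library. The lowest value was the 0.79 of Gh_D11G2791 with Gh_D11G2792, and the A03 run did not go below 0.99. For the A03 run this cannot show independence, since leaving out 1 library always keeps a 20 DPA library, on which its correlations rest. Low levels limit the precision, since 68 of the 640 member values were listed at 0 and the smallest value above 0 was 0.19 RPKM.

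**Figure D5:**
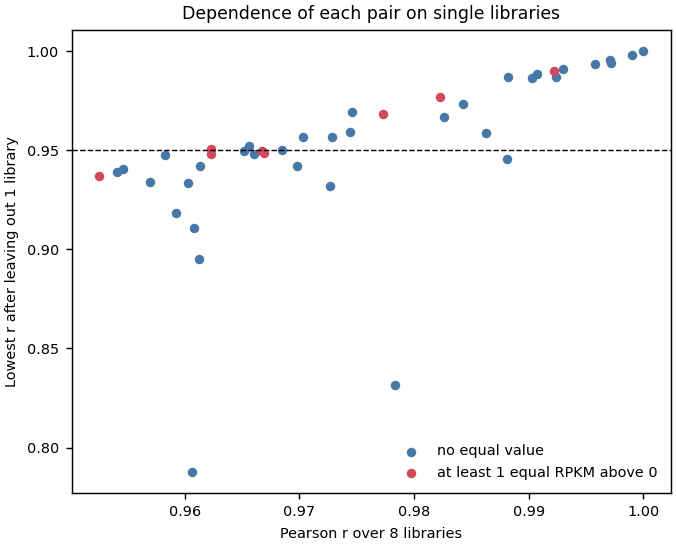
Lowest Pearson r of each of the 43 pairs after 1 library was left out (y axis) against r over all 8 libraries (x axis), with the limit of 0.95 dashed and the 8 pairs that hold an equal RPKM above 0 in red. The points of 23 pairs lie on or above the line, and the lowest is at 0.79.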

How the data were processed

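RNA sequencing libraries of fibers, 8 in all, were deposited as 1 table of RPKM for 59006 genes, made by the authors, with 2 decimals. All 8 columns were used and matched to samples by title, and no replicate numbers pair them. Tools listed by the submitters' processing notes are cutadapt, Bowtie2 and edgeR. Genome build, annotation, read counts and the handling of reads fitting several genes were not given in the sources used here. No counting intervals apply to single values.

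Members were found by the rule given in the text (Python 3.11.15, pandas 2.3.3, numpy 2.4.6), and runs are chains of adjacent pairs. The members, lists and the rule for named genes (long runs, the highest pairs per peak stage, the extremes and the pairs nearest each limit, and matched runs) were chosen with earlier results of these data known. The other runs are named to account for every member, and matches between subgenomes, flanking genes and equal values were examined after the values were seen. Peak stage is the stage with the highest mean log2(scaled RPKM + 1) over both species. limma 3.58.1 in R 4.3.3 (lmFit, eBayes with trend, two-sided) was fitted to log2(RPKM + 1) for genes averaging 1 RPKM or more. On this scale the change of low genes is understated, and its p-values reflect the spread among single libraries alone. Both procedures were tested on simulated data. No promoter or protein sequence of these genes was used here.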

Additional observations from a re-analysis of the deposited data

Results flagged for a closer look

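The run Gh_D13G0578 to Gh_D13G0580 stood higher at 20 than at 5 DPA in barbadense and lower in hirsutum, which is what marked it out. Its mean log2(scaled RPKM + 1) was 2.99 higher at 20 than at 5 DPA in G. barbadense, where all 3 genes were listed at 0 at 5 DPA. In G. hirsutum the same difference was -2.48. Each value rests on 1 library per stage, and the difference between the species was not tested. Gh_D13G0578 and Gh_D13G0579 hold 3 equal values above 0, so the split of reads between them is uncertain. Another run had opposite signs by smaller amounts: Gh_D02G0714 to Gh_D02G0715 differed by 0.18 in G. barbadense, where 7 of 8 values were 0, and by -1.24 in G. hirsutum.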

How the results depend on the processing

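The number of pairs stayed within 1.5 times of 43 in most settings: 49 on RPKM as deposited (40 of them among the 43), 37 with median-of-ratios factors (32 shared) and 40 with a constant of 0.1 (34 shared). It was 22 with a highest RPKM of at least 50 and 16 with a correlation of at least 0.98, both stricter by construction. Leaving out 1 library gave 36 to 48 pairs. The share of adjacent pairs past the correlation stayed well above that on different chromosomes, 16.7% against 1.89% as deposited and 15.8% against 1.03% with median-of-ratios factors. Members past the threshold for the species difference (4) numbered 1 with median-of-ratios factors, 1 with quantile normalization, 1 with a pseudocount of 0.1, and in limma 0 without a filter and 0 without stage in the model (31 and 9 at an unadjusted p under 0.05), and 0 to 25 when 1 library was left out. For 20 against 5 DPA (38) they numbered 9 without a filter and 12 without species in the model, and 11 to 44 when 1 library was left out. They were 11 without G. barbadense 20 DPA, 20 without G. hirsutum 5 DPA and 24 without G. barbadense 5 DPA. The cause was not tested. Replicate numbers pair nothing here, as each species and stage has 1 library. The reported models compare the species within stages and the stages within species, which serves as the replicate block, and the counts of 0 and 12 above are those without this pairing.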

Other observations

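Of the 14 pairs of eligible genes 2 numbers apart that reached a correlation of 0.95, 5 lay inside a run, and in 7 neither gene was a member. The closest of these was Gh_D10G1172 with Gh_D10G1174 at 0.99, followed by Gh_D05G0861 with Gh_D05G0863 at 0.98. On unplaced scaffolds 184 genes met the level and span criteria, and their neighbours could not be read from the identifiers. The genes on either side of the A10 and D10 runs were themselves variable: Gh_A10G0474 reached 104 RPKM and Gh_D10G0498 119 RPKM, and they correlated with the adjoining run ends at 0.88 and 0.82.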
